A study of Homo sapiens with 10 samples.

Results

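The interval on chromosome 14q24 that holds RAD51B and ZFP36L1 was examined for SMARCB1 and BRD9 in deposited CUT&RUN peak lists. It runs from 68200000 to 69400000 on chromosome 14 of the human build hg19, a length of 1200 kb, and its members are the peaks of all 8 lists that fall inside it. They number 1055 of the 543439 peaks in the lists: 190 and 202 of SMARCB1, 105, 91 and 121 of BRD9 with GFP induced, and 120, 105 and 121 of BRD9 with SMARCB1 induced. No peak crossed an edge of the interval (0 peaks). RAD51B lies at 68286496 to 69062738, a span of 776.242 kb, and ZFP36L1 lies near 69.25 to 69.26 Mb, 187.262 kb beyond the far end of RAD51B. Positions of exons and introns are not given, because no annotation of hg19 was used here.

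The cells were G401, a line from a rhabdoid tumour of the kidney, and all samples carry the labelled genotype SMARCB1(-/-). Doxycycline induced either GFP, the control, or SMARCB1. CUT&RUN cuts out and sequences the DNA beside a chromatin protein, with a nuclease tethered to an antibody. It was done with a rabbit monoclonal antibody to SMARCB1 (SMARCB1 induced, n = 2 lists) and with a rabbit polyclonal antibody to BRD9 (GFP induced, n = 3, and SMARCB1 induced, n = 3). The doxycycline dose, its duration and the construct's promoter are not stated in the labels, and nothing says whether replicates came from separate cultures, so p-values measure only the spread between these samples. The other 2 of the 10 samples, SMARCB1 with GFP induced and IgG with SMARCB1 induced, were not analysed here.

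SMARCB1 is a core subunit of the canonical SWI/SNF chromatin remodellers, which move nucleosomes and act at enhancers and promoters, and its loss defines rhabdoid tumours. BRD9 is the bromodomain subunit of the non-canonical form of the complex, which assembles without SMARCB1. RAD51B takes part in the repair of DNA breaks by homologous recombination. ZFP36L1 is a zinc finger protein that binds AU-rich elements in messenger RNAs and promotes their decay. In the gene order of RefSeq the neighbours are ZFYVE26, RAD51B, ZFP36L1 and ACTN1.

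The interval was chosen by its SMARCB1 values, so these are a description with no test: it holds the region at 68603673 to 68616876, place 3 of 87773 SMARCB1 regions of the genome when regions are ordered by the mean rank of their score. The place above belonged to a region on chromosome 12 and the place below to one on chromosome 7, with mean ranks of 4 and 6 against 4.25.

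Promoter windows of both genes are shown because BRD9 was called around the starts of both genes. The RAD51B window is not at the start of that gene. The sequences are those of RefSeq on GRCh38.p14, a different build from that of the peak lists, and their coordinates were not converted to hg19. Each runs 5′ to 3′ on the strand of the gene, from 250 bases before to 50 bases after an annotated start site. Capitals mark a match to the TEAD motif GGAATG on either strand. The RAD51B window lies at chr14:67823291-67823590 on the + strand, with a start site 3762 bases inside the annotated gene. Another RAD51B window, at a start site 3813 bases inside, is not shown. A window at the RAD51B gene start was not among those searched, so its sequence is not described. The first ZFP36L1 window, chr14:68796194-68796493 on the - strand, is at the gene start, and the second, chr14:68793367-68793666 on the - strand, is at a start site 2827 bases inside.
RAD51B: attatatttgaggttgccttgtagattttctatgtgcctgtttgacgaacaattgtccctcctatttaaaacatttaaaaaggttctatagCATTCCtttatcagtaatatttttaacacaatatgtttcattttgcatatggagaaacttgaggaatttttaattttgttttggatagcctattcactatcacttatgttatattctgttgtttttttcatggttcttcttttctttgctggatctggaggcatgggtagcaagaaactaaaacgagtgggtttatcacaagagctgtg
ZFP36L1, gene start: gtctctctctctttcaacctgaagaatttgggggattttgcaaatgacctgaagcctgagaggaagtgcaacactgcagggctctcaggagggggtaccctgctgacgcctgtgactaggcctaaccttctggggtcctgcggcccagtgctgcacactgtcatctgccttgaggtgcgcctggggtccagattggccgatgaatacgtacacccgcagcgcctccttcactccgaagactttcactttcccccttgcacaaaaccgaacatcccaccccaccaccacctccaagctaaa
ZFP36L1, inner start site: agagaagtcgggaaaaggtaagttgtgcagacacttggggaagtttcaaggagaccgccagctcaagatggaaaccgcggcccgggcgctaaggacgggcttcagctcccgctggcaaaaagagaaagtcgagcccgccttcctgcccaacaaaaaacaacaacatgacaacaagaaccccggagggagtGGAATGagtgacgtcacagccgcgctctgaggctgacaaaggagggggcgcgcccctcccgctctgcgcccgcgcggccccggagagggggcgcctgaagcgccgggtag

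The GC content was 32.3% in the RAD51B window, against 56.3% and 62.3% in the ZFP36L1 windows and a median of 58.7% over 35116 promoters of this length. The RAD51B window and the inner ZFP36L1 window each held 1 TEAD match, and the window at the ZFP36L1 gene start held 0. A TEAD match was present in 14.0% of the promoters. The AP-1 motif TGANTCA, searched on both strands, matched in 0 of the 3 windows and in 7.71% of the promoters. No match overlapped another. These letters describe the windows only.

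**Figure D1:**
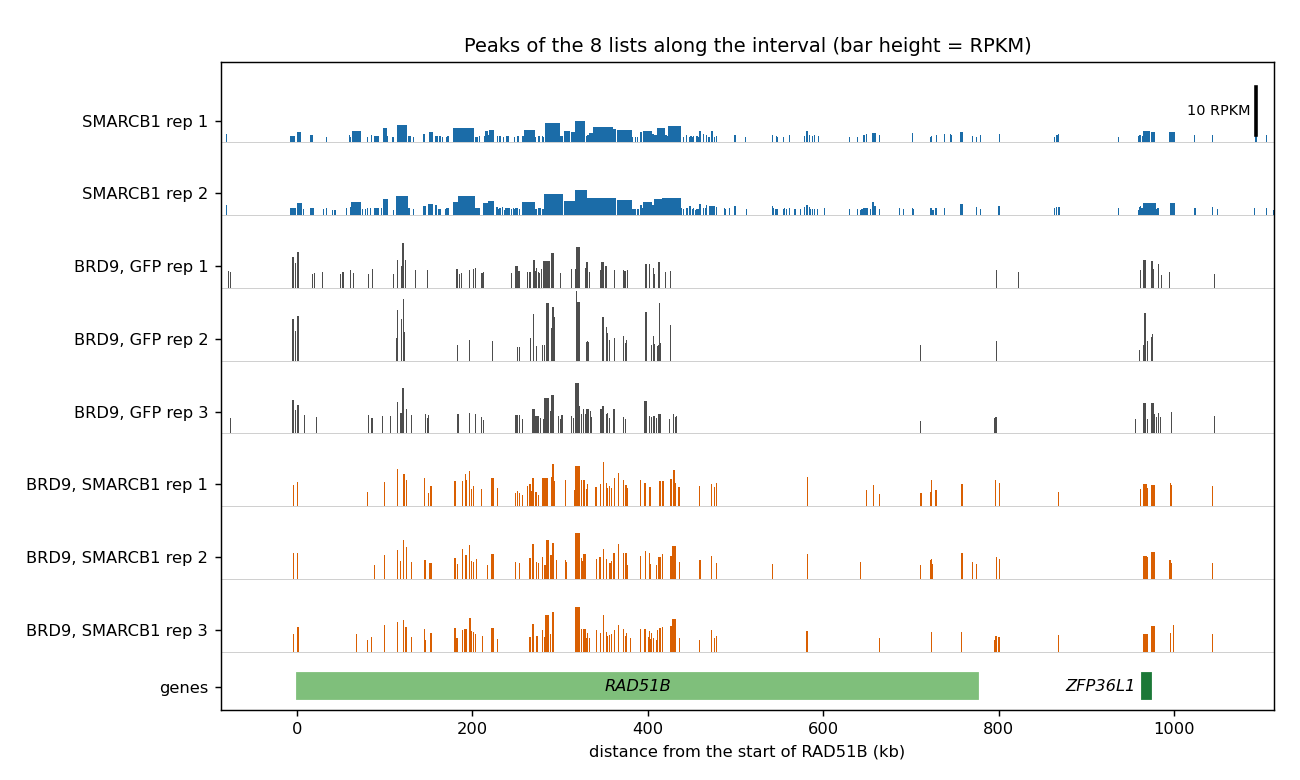
Peaks of the 8 lists against distance from the start of RAD51B in kb; bar width is peak width, bar height is density in RPKM (the scale bar is 10 RPKM), blue is SMARCB1, grey BRD9 with GFP induced and orange BRD9 with SMARCB1 induced. SMARCB1 peaks are wide between about 61.0 and 437 kb, and BRD9 peaks beyond 437 kb inside RAD51B number 1 to 3 in the grey lists and 18 to 21 in the orange lists.

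SMARCB1 formed a near-continuous domain inside the RAD51B gene body, between 61.0 and 437 kb from its start, and a separate one over ZFP36L1. A SMARCB1 region is a union of overlapping peaks that holds a peak of both replicates. The interval held 117 such regions, which covered 450.249 kb or 37.5% of it, against 5.89% of the spans of all chromosomes and 6.04% of that of chromosome 14. Of the 117, 97 lay in RAD51B, where they covered 51.8% of the gene. Their density per peak was near that of the genome: the median was 1.39 and 1.42 RPKM (reads per kb of peak per M library reads) in the 2 replicates, against 1.42 and 1.40 RPKM over the genome.

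Regions were wider in the interval than over the genome as a whole. The median region was 1750 bp wide in the interval and 1225 bp in the genome. Regions of at least 10 kb, called broad here, were 12 of the 117 (10.3%), against 1542 (1.76%) of all SMARCB1 regions and 40 on all of chromosome 14. The 12 broad regions held 49.0% of the covered length, and 11 of them lay in RAD51B. Of the genome's 100 highest regions by score, 2 were in the interval, and of the highest 1000, 10 were.

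The 11 broad regions in RAD51B lay in one stretch, from 68347451 to 68723926. It began 61.0 kb and ended 437 kb from the start of the gene, and SMARCB1 regions covered 80.4% of its 376.475 kb. With 44 regions it held 67.3% of the interval's covered length. In the remaining 338.812 kb of RAD51B, 49 regions with a median width of 1250 bp covered 25.2%. Within 50 kb bins the coverage was highest, at 98.8%, in the bin that starts 313.5 kb into the gene.

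Broad regions differed in density and in their order by score. The highest of the interval, at 68603673 to 68616876 (13.203 kb wide), had 4.18 and 5.15 RPKM in the 2 replicates, 4.67 ± 0.683 (SD, n = 2). The control library of these lists, which the list names call GFP, had 0.496 RPKM over the same intervals. The region directly after it, at 68616976 to 68650401, was the widest of the 12 with 33.425 kb and had 3.15 ± 0.402 RPKM (SD, n = 2; place 52). Next by score were the regions at 68568551 to 68590276 (3.91 ± 0.567 RPKM, place 114), 68464351 to 68489101 (3.35 ± 0.433 RPKM, place 115) and 68693426 to 68723926 (3.18 ± 0.394 RPKM, place 244; SD, n = 2 for each). Only gaps as short as 100 bp parted some neighbours, so the stretch could also be read as fewer and wider domains.

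The region over ZFP36L1, at 69250551 to 69265001, was 14.45 kb wide and had 2.39 ± 0.234 RPKM (SD, n = 2). It stood at place 4384 by score, below the other 11, and its control density of 0.659 RPKM was the highest of the 12. In the other broad regions the control density was between 0.322 and 0.611 RPKM. Each of the 12 was denser in SMARCB1 than in the control, by 3.63 times at ZFP36L1 and by 5.94 to 9.41 times in RAD51B. The regions consist of called peaks from lists that carry this control, so the excess is a description.

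**Figure D2:**
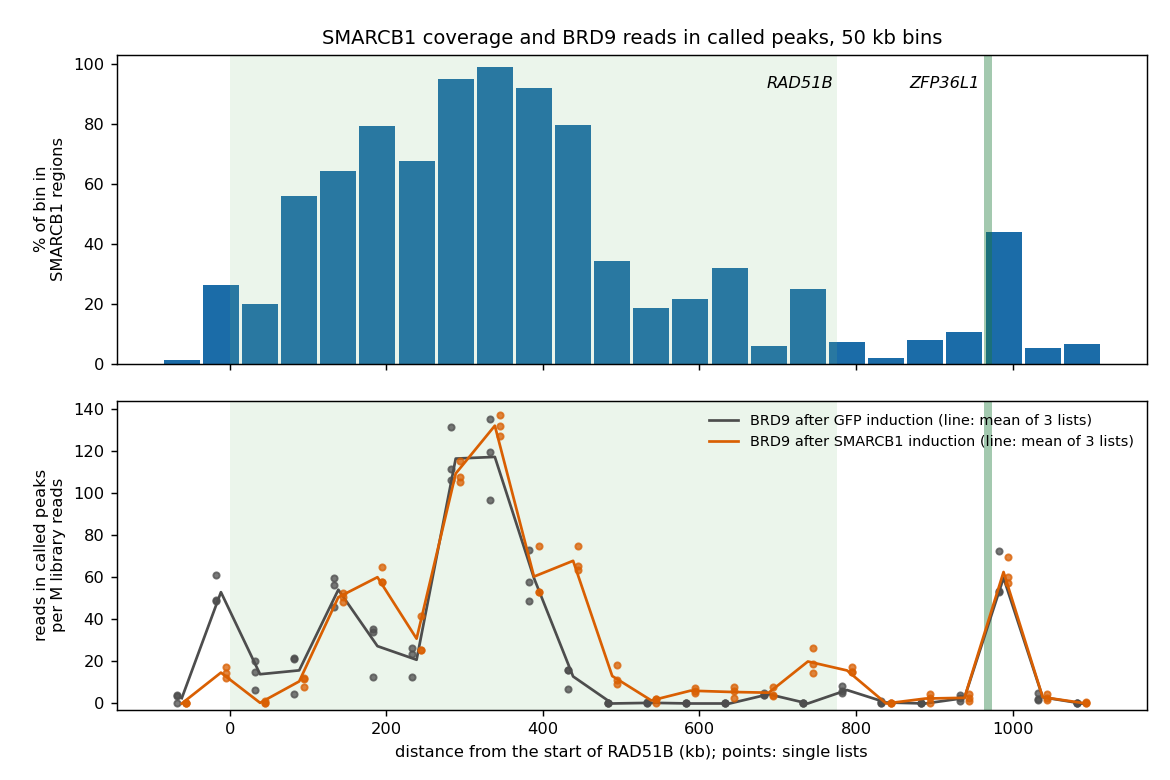
Upper panel, percent of each 50 kb bin in SMARCB1 regions; lower panel, BRD9 reads in called peaks per M library reads in the same bins, as points for single lists and lines for group means (n = 3 each), against distance from the start of RAD51B. Both groups peak in the bins that start 263.5 and 313.5 kb into RAD51B, and the induced lists all lie below the control lists in the 2 bins from 68250000 to 68350000, around the start of the gene, and all above them in 7 bins, which start between 163.5 and 763.5 kb.

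BRD9 was then compared between cells with SMARCB1 induced and cells with GFP induced. BRD9 was already present in control cells, and none of 6 summary measures of the whole interval passed the test. BRD9 libraries held 10.1 to 13.9 M reads, and reads are known only where a list has a peak, so a place with no call is not shown to lack BRD9. The list of GFP replicate 2 had the fewest peaks in the interval and in the genome and the highest median density, 4.74 RPKM against 3.66 to 4.23 RPKM in the other 5 lists over regions common to all 6. Its part in the results below was not tested beyond the values given without it.

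BRD9 reads in called peaks of the interval were 532, 524 and 657 per M library reads with GFP induced and 703, 677 and 645 with SMARCB1 induced. The groups overlapped, with means of 571 ± 74.4 and 675 ± 29.05 (SD, n = 3 each) and a log2 difference of 0.24 (exact permutation test, two-sided, p = 0.2; over the 6 measures, adjusted p = 0.3). Peak numbers had means of 106 ± 15.01 and 115 ± 8.96 (SD, n = 3 each; log2 difference 0.13, exact permutation p = 0.7, adjusted p = 0.7). With 3 lists against 3 this exact test cannot give less than p = 0.1.

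Covered length was 115120, 78455 and 140595 bp with GFP induced and 146418, 135037 and 142780 bp with SMARCB1 induced, a log2 difference of 0.34 (exact permutation p = 0.2, adjusted p = 0.3). Without GFP replicate 2, which covered the least, it was 0.15, and without GFP replicate 3 it was 0.55. The interval took 0.322, 0.343 and 0.442% of the covered length of the control lists and 0.386, 0.440 and 0.437% of that of the induced lists (log2 difference 0.19, exact permutation p = 0.4, adjusted p = 0.48). The share of a list that lay in the interval thus differed by less than the spread between lists.

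The groups did not overlap in how many SMARCB1 regions held BRD9. With GFP induced, 31, 27 and 35 of the 117 regions held a BRD9 peak, and with SMARCB1 induced 50, 42 and 47 did. The mean share went from 26.5 ± 3.42% (SD, n = 3) to 39.6 ± 3.45% (SD, n = 3), or by 13.1 points, and reached the smallest p possible (exact permutation p = 0.1, adjusted p = 0.3). With SMARCB1 peaks of either replicate taken as regions, the difference was only 4.42 points (exact permutation p = 0.2). Over all SMARCB1 regions of the genome the shares were 9.38 ± 2.11% and 22.1 ± 0.506% (SD, n = 3 each), so the interval started from a higher share. The gap between the groups was of similar size in the interval and in the genome, so it is no result about the interval. Conversely, 71.4, 90.1 and 73.6% of the interval's BRD9 peaks lay at SMARCB1 regions with GFP induced, and 90, 90.5 and 90.9% with SMARCB1 induced. The groups overlapped here, with a difference of 12.1 points (exact permutation p = 0.2, adjusted p = 0.3). The genome shares were 30.5 ± 10.7% and 62.5 ± 4.65% (SD, n = 3 each). The interval was chosen by its SMARCB1 values and SMARCB1 regions cover 37.5% of it, so its higher shares are a description.

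**Figure D3:**
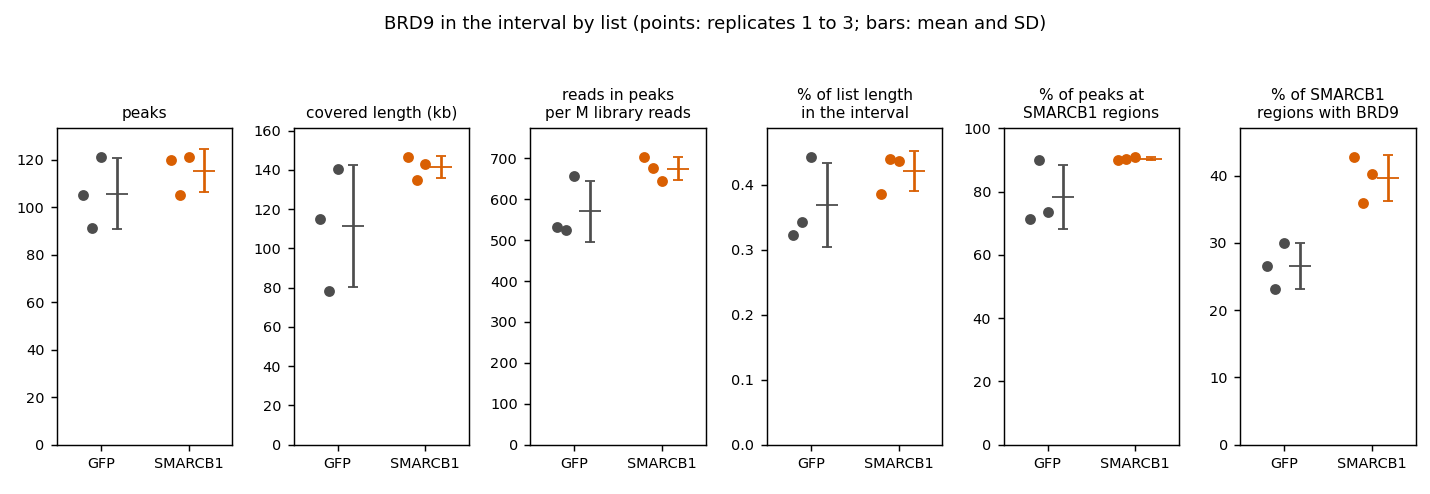
The 6 summary measures of BRD9 in the interval for each list (points) with the group mean and SD (bars), n = 3 per group; all axes start at 0. The groups overlap in all panels but the last, where 23.1 to 29.9% of SMARCB1 regions held BRD9 with GFP induced and 35.9 to 42.7% with SMARCB1 induced.

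Cut at the limits of the SMARCB1 stretch, RAD51B showed opposite patterns at its 2 ends. These cuts follow SMARCB1 and were made after the values were seen, so the parts are described without a test. In the first 60.955 kb of the gene BRD9 had 10, 6 and 11 peaks with GFP induced and 2, 1 and 1 with SMARCB1 induced. Reads in those peaks were 44.7, 35.7 and 34.3 per M, and 8.40, 8.58 and 9.93 per M. The induced lists all lay below the control lists, by a ratio of means of 0.235.

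In the stretch itself the peak numbers of the groups overlapped, 73, 69 and 84 with GFP induced and 77, 73 and 85 with SMARCB1 induced. The share of its SMARCB1 regions with BRD9 was 53.0 ± 9.19% with GFP induced and 53.0 ± 1.31% with SMARCB1 induced (SD, n = 3 each). Reads per M there were 393, 391 and 497 in the control lists and 529, 522 and 501 in the induced lists. The induced lists lay above the control lists, but the closest pair, 497 and 501, differed by less than the spread within the control group.

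In the last 338.812 kb of RAD51B, BRD9 had 3, 1 and 2 peaks with GFP induced and 21, 18 and 18 with SMARCB1 induced. Reads in peaks went from 6.02, 4.21 and 3.92 per M to 72.3, 55.6 and 42.9 per M, a ratio of means of 12.1. With GFP induced, 0 of the 49 SMARCB1 regions there held a BRD9 peak in any list, and with SMARCB1 induced 32.7, 26.5 and 26.5% did. Over all SMARCB1 regions of the genome the mean shares were 9.38% with GFP induced and 22.1% with SMARCB1 induced. The induced share here was thus not far from that of the genome, and the control share was lower. This end of the gene, where SMARCB1 regions had a median width of 1250 bp and covered 25.2%, had the widest relative gap among the 3 parts of RAD51B. The control lists had few peaks here and reads outside peaks are not known, so this ratio depends on which peaks were called.

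In 50 kb bins the same pattern was seen at finer scale. The induced lists all lay above the control lists in 7 of 24 bins and all below in 2, against 20.2% and 7.04% of the bins of the genome that held a BRD9 peak, and the 15 others overlapped. These shares are near the background, so the counts are no result about the interval. In the bin that starts 413.5 kb into RAD51B, reads per M were 6.78, 15.85 and 15.96 with GFP induced and 74.8, 63.4 and 65.5 with SMARCB1 induced. In the bins that start 463.5, 563.5, 613.5 and 713.5 kb into the gene, all control lists had 0 reads in peaks and all induced lists had some, with means of 13.1, 6.10, 5.51 and 19.99 per M. In the bin around the start of RAD51B, from 68250000 to 68300000, the control lists had 48.7, 60.9 and 49.3 per M and the induced lists 12.2, 14.4 and 17.5 per M. Across the 24 bins, SMARCB1 coverage and BRD9 reads had a Spearman rho of 0.64 with GFP induced and 0.88 with SMARCB1 induced. This is a description over neighbouring bins of the same libraries.

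BRD9 over the broad SMARCB1 regions was tested with limma on log2 reads per M, which grow with the width called as well as with density, over all 693 broad regions of the genome that had a BRD9 peak in all 6 lists. This fit was added once the data had been seen. Of the 12 broad regions of the interval, 11 could be tested: 3 had more BRD9 with SMARCB1 induced (33.9% of the genome's did) and 1 had less (13.4% of the genome's did). Neither call was more frequent than in the genome, so these counts are no result about the interval. The median log2 difference was 0.17 over the 11 and 0.37 over the 693. With each list centred on its median, which moved the median over the 693 to -0.11, the same fit gave 3 higher and 5 lower of the 11, and 157 higher and 206 lower of the 693. The 3 higher regions and the 1 lower region were called in the same direction under both scalings, and the 4 further lower calls were made only with each list centred.

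The 3 regions in which BRD9 rose were all in RAD51B, as were 11 of the 12 broad regions. At 68464351 to 68489101, reads per M went from 23.5, 9.66 and 19.2 to 51.4, 53.3 and 59.5, a log2 difference of 1.73 (SE 0.29, limma adjusted p = 0.000427). BRD9 peaks covered 19.3 ± 8.29% of this region in control cells and 45.5 ± 5.45% in induced cells (SD, n = 3 each). At 68651051 to 68669326 the reads were 7.62, 7.35 and 6.85 per M and 24.1, 27.3 and 22.3 per M (log2 difference 1.74, SE 0.31, limma adjusted p = 0.00059). At 68693426 to 68723926, the last of the stretch, they were 21.7, 39.1 and 42.6 per M and 72.6, 78.3 and 69.0 per M (log2 difference 1.14, SE 0.24, limma adjusted p = 0.00178). In none of the 3 did the groups overlap, and each was called when any 1 of the 6 lists was left out.

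At the highest SMARCB1 region of the interval BRD9 was abundant in both groups. At 68603673 to 68616876 they were 60.1, 63.0 and 75.7 per M with GFP induced and 64.8, 74.1 and 66.9 per M with SMARCB1 induced, and the groups overlapped (log2 difference 0.05, SE 0.17, limma adjusted p = 0.805). The peaks were wider in induced cells, however: they covered 54.5, 39.5 and 61.5% of the region in control lists and 72.2, 78.7 and 73.5% in induced lists, without overlap. The adjoining region at 68616976 to 68650401 had 50.2, 53.8 and 73.4 per M and 63.4, 59.4 and 57.6 per M (log2 difference 0.04, SE 0.18, limma adjusted p = 0.857). The region at 68568551 to 68590276, which had the most BRD9 of the 12 in control cells, had 71.3, 85.3 and 86.6 per M and 71.8, 68.6 and 64.7 per M (log2 difference -0.24, SE 0.16, limma adjusted p = 0.232). With each list centred, these 3 strong regions were called lower with SMARCB1 induced, by -0.43, -0.44 and -0.72 on the log2 scale (limma adjusted p = 0.0201, 0.0238 and 0.000662).

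The 1 region with less BRD9 was at 68399426 to 68413101, where reads per M went from 39.1, 58.5 and 45.9 to 33.7, 30.3 and 34.6 (log2 difference -0.52, SE 0.20, limma adjusted p = 0.048). It was also called with each list centred (log2 difference -1.003, limma adjusted p = 0.000374). It was lost without any 1 list other than GFP replicate 1, with log2 differences of -0.37 to -0.56 and limma adjusted p between 0.0912 and 0.165. The regions at 68542526, 68590526 and 68680876 did not pass (limma adjusted p = 0.119, 0.667 and 0.371), but with each list centred the last was called lower (log2 difference -0.77, limma adjusted p = 0.0047). The first broad region of the stretch, at 68347451, had at most 6.78 reads per M in any list and none in SMARCB1 replicate 1, and was not tested.

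**Figure D4:**
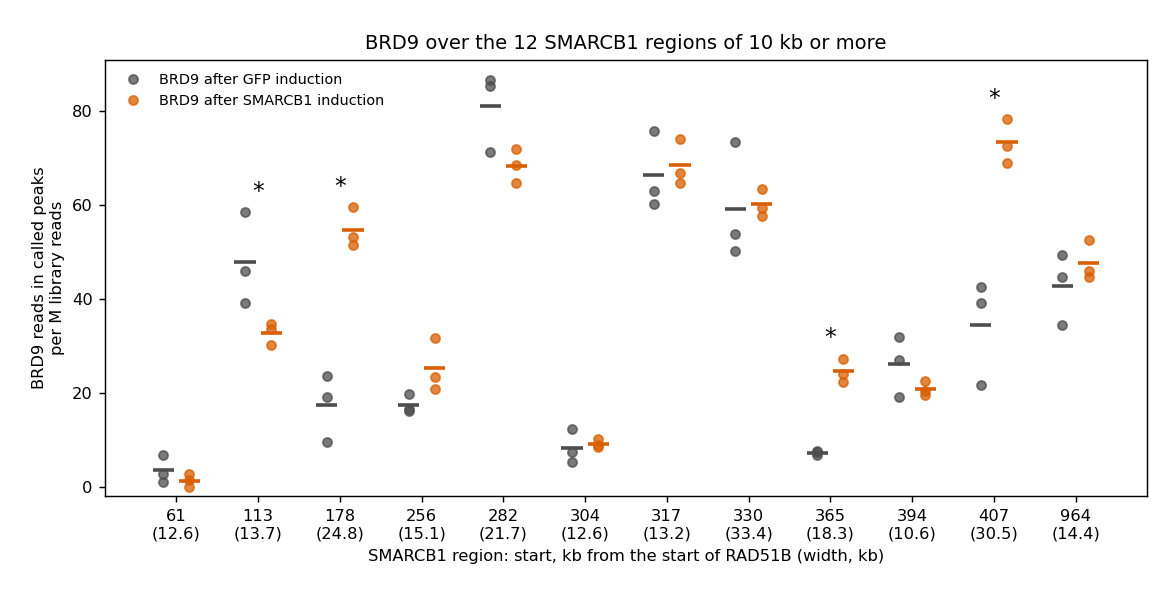
BRD9 reads in called peaks per M library reads in the 12 broad SMARCB1 regions, by distance of the region's start from the start of RAD51B in kb (width in kb in brackets); points are lists, lines are means of 3, and an asterisk marks limma adjusted p below 0.05. The orange points lie above the grey ones at 178, 365 and 407 kb and below them at 113 kb, and they overlap at 317 kb, the highest SMARCB1 region.

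The 6 BRD9 lists merged into 187 regions in the interval, which were sorted by the lists that held them. A gained region had a peak in 3 of 3 induced lists and 0 of 3 control lists, and a lost region the opposite. Gained regions were 21 of the 187 (11.2%), against 6.85% of all BRD9 regions of the genome. Lost regions were 4 (2.14%), against 1.04%. Regions in all 6 lists were 29 (15.5%), against 4.67%, and 63 regions (33.7%) had a peak in 1 list alone, against 62.9%. A lower share of single-list regions leaves a larger share for the other classes, so the higher share of gained regions is no result about the interval. These classes have no test, and the lost count rested on which lists were used: it was 14 without GFP replicate 2, 8 without GFP replicate 3 and 7 without SMARCB1 replicate 3. Without a GFP list a lost region needs fewer calls, and without a SMARCB1 list fewer lists must lack one.

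Of the 21 gained regions, 20 lay at a SMARCB1 region, near the background of 95.9% of the genome's gained regions, and 19 lay in RAD51B. They were found between 98.96 and 955 kb from the start of that gene. Their mean densities ranged from 3.00 to 6.48 RPKM with a median of 4.52 RPKM. The control library of the BRD9 lists had 0.605 to 2.79 RPKM in them. The densest, at 68652559 to 68654052, had 6.76, 7.20 and 5.47 RPKM in the induced lists. It lay in the broad region that begins at 68651051, one of the 3 in which BRD9 rose.

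By mean rank of the score the first gained region was at 68477376 to 68480344, with 5.91, 4.96 and 4.68 RPKM in the induced lists. Its neighbour at 68474926 to 68476077 had 5.12, 6.08 and 4.43 RPKM, and both lay in the broad region that begins at 68464351. The region at 68702558 to 68704301 had 5.20, 5.04 and 5.04 RPKM, and lay in the broad region that begins at 68693426. The 4 others of the first 8 were outside broad regions. At 68677492 to 68678629 the densities were 5.49, 4.77 and 4.70 RPKM.

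The remaining 3 lay in the last part of RAD51B, beyond the SMARCB1 stretch. At 68867198 to 68868487 the induced lists had 6.001, 5.19 and 4.15 RPKM, and at 69009126 to 69010226 they had 5.42, 4.20 and 3.95 RPKM. At 69042996 to 69045089, the closest of these to the far end of the gene, they had 4.51, 5.39 and 4.04 RPKM. The only gained region outside SMARCB1 regions was at 69241395 to 69241778, short of ZFP36L1, with a mean of 3.00 ± 0.34 RPKM (SD, n = 3), the lowest of the 21. It is named for that position, after its values were seen.

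Of the 4 lost regions, 3 lay between 68283951 and 68307187, on either side of the start of RAD51B. The densest, at 68283951 to 68285754, had 5.14, 6.08 and 4.73 RPKM in the control lists, and the control library had 0.334 RPKM. The next, at 68294181 to 68296026, had 3.504, 3.05 and 3.88 RPKM and was the 1 lost region away from SMARCB1. Of the genome's lost regions 28.4% lay at SMARCB1, and the interval was chosen by its SMARCB1 values, so this is a description. The third, at 68305526 to 68307187, had 3.06, 3.27 and 3.51 RPKM. The last lost region, at 68637625 to 68638242, lay inside the widest broad SMARCB1 region and had 4.599, 4.50 and 4.44 RPKM.

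The regions in all 6 lists allowed a test of BRD9 level. Of the 29, 27 lay at SMARCB1 regions, against 59.6% of such regions of the genome, and 25 lay in RAD51B. As the interval was chosen by its SMARCB1 values, the share at SMARCB1 regions is a description. On log2(RPKM + 0.1), 0 of the 29 differed by limma (adjusted p below 0.05), against 1.57% of the 5598 such regions of the genome; the lowest adjusted p was 0.0875, and 7 of the 29 had an unadjusted p below 0.05, against 16.3% of the genome's. The median log2 difference was -0.17 in the interval and -0.16 in the genome. As reads per M, 1 region was higher with SMARCB1 induced and 3 were lower, against 4.07% and 5.97% of the genome's regions. Without GFP replicate 2, 12 of the regions then in all lists differed in reads per M, and without SMARCB1 replicate 2 or 3, 2 did.

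The 1 region that rose in reads per M was at 68482076 to 68485951, in the broad region that begins at 68464351. It had 2.92, 2.06 and 4.50 reads per M with GFP induced and 18.9, 19.2 and 21.3 with SMARCB1 induced (log2 difference 2.68, SE 0.34, limma adjusted p = 0.00216). It was called without any 1 list, and it was also the 1 region called on density when each list was centred. Of the 29 regions, 8 had all induced lists above all control lists in reads per M and 5 had them all below, against 12.4% and 21.1% of the genome's.

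Around the start of RAD51B, BRD9 reads in called peaks fell. The region at 68286219 to 68289019, which spans the start, had 19.4, 25.8 and 15.5 reads per M with GFP induced and 7.41, 8.58 and 9.93 with SMARCB1 induced, without overlap (log2 difference -1.19, SE 0.27, limma adjusted p = 0.0233). Its density went from 7.36, 9.31 and 5.77 RPKM to 5.07, 5.32 and 4.99 RPKM, which did not pass (log2 difference -0.51, SE 0.21, limma adjusted p = 0.216). The call in reads per M was lost without SMARCB1 replicate 1, 2 or 3 (limma adjusted p = 0.0577, 0.103 and 0.076), with log2 differences of -1.09, -1.19 and -1.30. The region just before the gene, at 68280851 to 68283713, had 17.8, 24.1 and 18.9 reads per M and 4.78, 5.82 and 7.55 reads per M (log2 difference -1.74, SE 0.28, limma adjusted p = 0.00521), and was called without any 1 list. Its density did not pass (log2 difference -0.71, SE 0.21, limma adjusted p = 0.0875). Peaks there covered a mean of 2765 bp in control lists and 1422 bp in induced lists. BRD9 was thus still called at the start of RAD51B in all 3 induced lists, over 1463, 1613 and 1991 bp of the region that spans it, against 2634, 2768 and 2681 bp in the control lists.

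The third region with fewer reads was at 68681688 to 68685241, with 12.9, 24.3 and 21.9 reads per M and 8.81, 9.96 and 6.69 reads per M (log2 difference -1.17, SE 0.30, limma adjusted p = 0.0385). It was called without GFP replicate 1 or 2 but not without any of the other 4 lists, where the log2 difference was -1.01 to -1.30. The density of this region did not pass (log2 difference -0.49, limma adjusted p = 0.276). The highest of the 29 by score lay inside the highest SMARCB1 region, at 68603816 to 68609172. Its density was 8.17, 12.9 and 9.87 RPKM with GFP induced and 8.29, 9.36 and 9.11 RPKM with SMARCB1 induced, and the groups overlapped (log2 difference -0.18, SE 0.20, limma adjusted p = 0.623).

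Next by score was the widest of these, at 68565401 to 68579644, with 6.06, 9.03 and 7.01 RPKM with GFP induced and 6.21, 6.16 and 6.24 RPKM with SMARCB1 induced (log2 difference -0.23, SE 0.20, limma adjusted p = 0.554). The third, at 68406822 to 68409471, lay in the broad region that had less BRD9. Its density was 9.18, 11.2 and 9.30 RPKM in control lists and 6.70, 8.11 and 6.50 RPKM in induced lists, without overlap, but the difference did not pass (log2 difference -0.47, SE 0.19, limma adjusted p = 0.220). The regions at 68554626, 68630693 and 68695926, also among the first 8, had log2 density differences of -0.07, -0.18 and -0.05 and groups that overlapped in density, and these signs turned as reads per M (for the first and the last also with each list centred). In the 8 highest regions of the interval held by all lists, density therefore differed by less than the test could call.

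**Figure D5:**
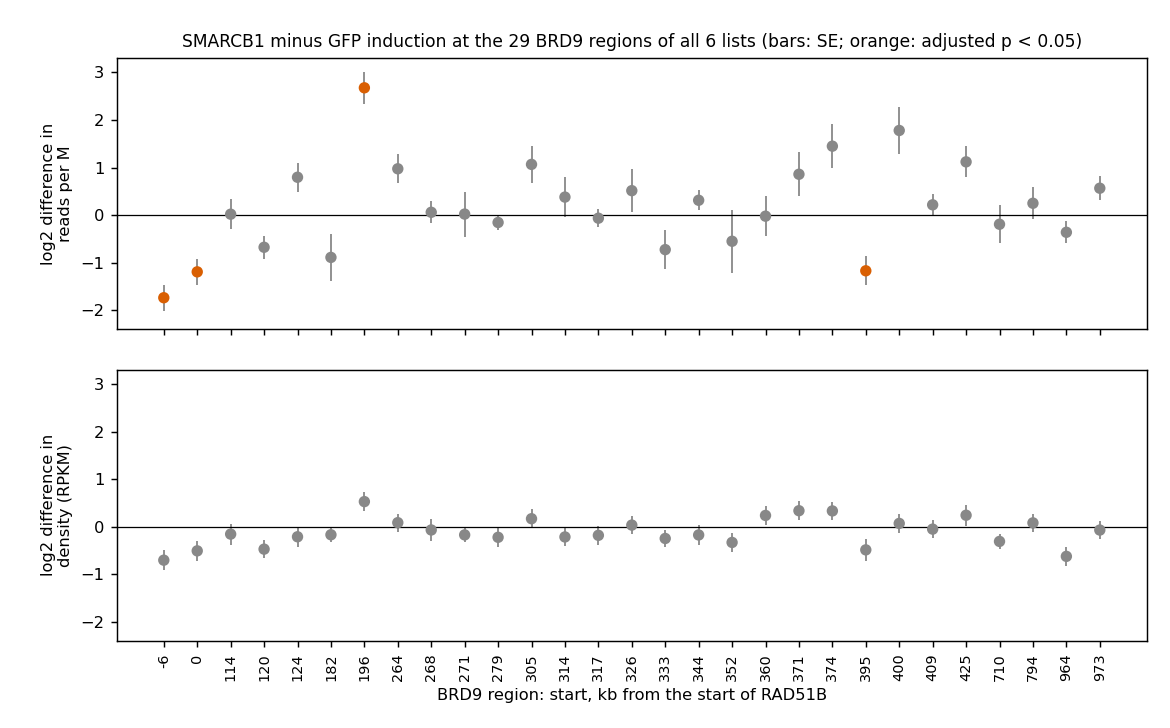
Log2 difference, SMARCB1 minus GFP induced, at the 29 BRD9 regions in all 6 lists, ordered by start in kb from the start of RAD51B; upper panel reads per M library reads, lower panel density in RPKM, error bars are the SE of the limma fit and orange marks adjusted p below 0.05. In reads per M, 2 regions at the start of RAD51B and 1 in the stretch are lower and 1 is higher, and in density 0 pass.

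At ZFP36L1 no difference passed. The broad SMARCB1 region over the gene had 34.5, 44.7 and 49.4 BRD9 reads per M with GFP induced and 45.9, 52.5 and 44.7 with SMARCB1 induced (log2 difference 0.17, SE 0.19, limma adjusted p = 0.504). BRD9 peaks covered 50.7 ± 8.82% of it in control cells and 69.9 ± 1.86% in induced cells (SD, n = 3 each), and the coverage of the groups did not overlap. The 2 regions there that all 6 lists held were at 69250220 to 69255001 and 69259346 to 69264877.

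The first had 5.67, 8.44 and 6.34 RPKM with GFP induced and 4.59, 4.73 and 3.71 RPKM with SMARCB1 induced. These values did not overlap, but the difference did not pass (log2 difference -0.63, SE 0.21, limma adjusted p = 0.135). The second had 5.11, 5.13 and 5.70 RPKM and 4.37, 5.49 and 5.33 RPKM, which overlapped (log2 difference -0.07). Beyond RAD51B as a whole, the interval held 15, 13 and 20 BRD9 peaks with GFP induced and 19, 12 and 16 with SMARCB1 induced. Whether ZFP36L1 and RAD51B differed in their response was not tested.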

How the data were processed

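CUT&RUN peak lists of 8 samples were used, each called on its own sample. The deposited lists hold raw counts per peak for sample and control, and both as RPKM, per the file headers. Their deposited log2 fold difference is log2 of (sample count + 1) over (control count + 1). The score, a −log10 of the false discovery rate, is the authors' and served only to rank peaks within a list. SMARCB1 lists name hg19, per the file names; BRD9 lists name no build, and the submitters' processing notes name hg19. These notes also name BWA 0.7.12-r1039; the peak caller is not given in the sources used here. The control library held 49.6 M reads for the SMARCB1 lists and 23.1 M for the BRD9 lists, whose control is not named.

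Library sizes were recovered from counts and RPKM. Intervals overlapped when they shared at least 1 bp. The 6 summary measures were compared by two-sided exact permutation tests with Benjamini-Hochberg adjustment. Densities were tested with limma 3.58.1 in R 4.3.3 (trend) on log2(RPKM + 0.1), and reads per M likewise with the same pseudocount, over all regions of the genome held by all 6 lists. Intervals differ between lists, so no count test was run. On simulated data for the density test over 5598 regions, 200 of 200 planted regions (log2 difference 1) were recovered and 7 others were called. All simulated regions had a common SD and independent noise. The simulation therefore does not show what the test can call at smaller differences or at the spread of the real lists. Named regions were the broad SMARCB1 regions, the 5 highest SMARCB1 regions, all lost and the first 8 gained and 6-list BRD9 regions by mean rank, and those nearest the gene starts; of the 6-list regions, those that passed in reads per M were added after their values were seen. The interval, the genes and the lists were chosen with earlier results of these data known. Alternatives are named in the closing section. Motifs in peaks were not searched, since no genome of hg19 was used here. Figures were drawn with Python 3.11.15 and matplotlib 3.10.9.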

Additional observations from a re-analysis of the deposited data

How the results depend on the processing

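Of 126 recomputed summary values, 102 kept their direction and stayed within their spread or within 1.5 times the main count, 23 moved and 1 reversed; except where stated, the cause was not tested. No permutation test of 3 lists against 3 could pass 0.05, so for those only the direction is informative. Downstream of RAD51B alone, the log2 difference in peak number reversed to -0.030, and there were 2 gained and 0 lost regions, from fewer regions. Calls in at least 2 of 3 lists gave 33 gained and 17 lost regions, and merging within 500 bp gave 2 lost regions. Leaving out 1 list gave 22 to 29 gained and 4 to 14 lost regions, since fewer calls or fewer missing calls are then required. SMARCB1 peaks of either replicate gave 211 regions and single replicates 190 to 202. Over those 211 regions the share with BRD9 differed by 4.42 points (exact permutation p = 0.2), against 13.1 points in the main setting.

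Replicate numbers are shared between the BRD9 groups, but same-numbered lists hardly deviated together (correlations of 0.085, 0.044 and 0.032). Differently numbered lists had lower correlations, from -0.053 to 0.0058. As all were small, lists were not treated as pairs in the main results, but a pairing is not excluded. With a replicate block there were 2 regions of all 6 lists with a density difference (259 in the genome, against 88 without it). The smallest p of the 6 summary measures was then 0.25 (paired sign-flip test), the least that 3 pairs allow. This setting also counted 40 gained and 22 lost regions. The main rule for these classes has no term for a block, so these 2 counts follow another rule and are not comparable with the main counts.

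The count of 0 density differences became 4 in reads per M, 1 with each list centred, 4 with broad SMARCB1 regions as features, and 0 to 2 when 1 list was left out. Over the genome it was 562 in reads per M, 148 centred, 328 over broad regions and 10 to 491 without 1 list, the highest without GFP replicate 2. Differences in reads per M were 2 to 12 without 1 list. Over the broad regions the 4 calls became 8 when centred and 3 to 5 without 1 list. The small density differences at 4 regions, none of which passed, turned positive: 68554626 to 68557455 (0.068 centred, 0.058 in reads per M), 68630693 to 68636992 (0.31 in reads per M), 68695926 to 68701676 (0.086 centred, 0.22 in reads per M) and 69259346 to 69264877 at ZFP36L1 (0.067 centred, 0.57 in reads per M).

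Without 1 list the log2 differences ran from 0.029 to 0.23 for peak number, 0.15 to 0.55 for covered length, 0.18 to 0.35 for reads and 0.099 to 0.34 for the share of a list. For BRD9 peaks at SMARCB1 regions the share differed by 8.63 to 18.0 points, and that of SMARCB1 regions with BRD9 by 11.4 to 14.96 points. No reads are known below the threshold of the lists, which limits what a missing call can show.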
